A study of Mus musculus with 12 samples.

Results

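The 10 regulators of energy metabolism described here were measured in mouse hearts that had lost Mediator subunit 30 (MED30). They are the peroxisome proliferator-activated receptor genes Ppara, Ppard and Pparg, the retinoid X receptor genes Rxra and Rxrg, the estrogen-related receptor genes Esrra, Esrrb and Esrrg, and the coactivator genes Ppargc1a and Ppargc1b. These 10 genes were chosen by name, with earlier results of these data known, and all 10 were among the 20775 genes listed for each stage.

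PPARs bind DNA as heterodimers with an RXR and are switched on by fatty acids and their derivatives, while ERRs are orphan receptors that bind without a known natural hormone. PGC-1α and PGC-1β, encoded by Ppargc1a and Ppargc1b, do not bind DNA themselves. They dock on PPARs and ERRs and recruit acetyltransferases and Mediator, through which the receptors reach RNA polymerase II. In the heart these factors are known for driving fatty acid oxidation, the citric acid cycle and oxidative phosphorylation, and their levels rise as the heart matures after birth.

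At each stage 3 knockout samples were compared with 3 control samples. E10.5 Ctrl and E10.5 cKO were whole embryonic hearts: the cKO embryos were Med30 f/f and carried Tnnt-Cre, which is active in cardiomyocytes, and the Ctrl embryos were Med30 f/f littermates with no Cre. The other groups, 4 weeks Ctrl and 4 weeks icKO, were cardiomyocytes isolated from hearts of adult mice aged 3 months, 4 weeks after tamoxifen. The icKO mice were Med30 f/f with αMHC-MerCreMer, a cardiomyocyte Cre that tamoxifen switches on, and the Ctrl mice were Med30 f/f with no Cre and had received tamoxifen too. The labels give the strain as C57BL/6 and call the controls wild type. Since the controls carried no Cre, Cre itself and the loss of Med30 cannot be told apart in these RNA data. Per the paper, tamoxifen caused no deaths or heart dysfunction in αMHC-MerCreMer mice without a floxed allele. RNA of such mice is not among these samples. The floxed allele, which flanks exon 1, came from 1 embryonic stem cell clone. The labels do not say that samples of a group came from separate animals, so p values measure the spread between these samples.

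Levels are given as deposited, in RPKM (reads per kilobase of a gene, relative to the size of the library). Fold changes were taken after scaling every sample by its median ratio to the other samples of its stage, and are therefore changes relative to the typical gene. The choice matters at 4 weeks, where, over the genes tested, the log2 fold change had a median of 0.57 in the RPKM as deposited and of 0.01 after scaling (at E10.5, −0.13 and −0.01). A gene is said to have risen or fallen at a limma p value under 0.05 after Benjamini-Hochberg adjustment over all genes tested, which were those with a mean RPKM above 1. Log2 fold changes were computed on RPKM + 0.1, which understates the change of low genes. The reads behind the RPKM were estimated at 11.9 to 20 M per sample, so that for Ppara 3 reads correspond to an RPKM of 0.044 to 0.0737. Such floors cover counting error only.

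Med30 itself fell at both stages. At E10.5 its RPKM was 10.6, 13.3 and 11.3 in the Ctrl samples and 1.38, 2.02 and 1.0 in the cKO samples, and at 4 weeks 7.66, 7.45 and 7.66 in Ctrl and 3.81, 3.16 and 1.83 in icKO. The log2 fold changes were −2.84 (SE 0.25, adjusted p = 0.00123) at E10.5 and −1.96 (SE 0.21, adjusted p = 5.94e-05) at 4 weeks, with no overlap of the groups at either stage.

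The samples held the cells that their labels name, with other cells beside them. The summed RPKM of 10 cardiomyocyte markers was 7380 to 10849 in E10.5 Ctrl and 5136 to 6114 in cKO, and 28027 to 29510 in 4 weeks Ctrl and 9465 to 13049 in icKO. At 4 weeks 9 of the 10 fell and 1, Nppa, a natriuretic peptide gene of the stressed ventricle, rose. The summed RPKM of 8 fibroblast markers was 5.03 to 8.39 in Ctrl and 60.4 to 87.5 in icKO, and 4 of the 5 tested rose. The sum of 7 endothelial markers was 9.0 to 22.3 in Ctrl and 23.7 to 37.1 in icKO (1 of 7 rose). For 6 smooth muscle and pericyte markers it was 47.0 to 72.3 and 51.7 to 80.1 (2 of 5 tested rose and 1 fell). For 8 macrophage markers it was 2.21 to 3.30 and 5.69 to 7.48 (1 of 2 tested rose). These sums are of RPKM as deposited, in which 60.6% of all genes tested at 4 weeks were higher in icKO. After scaling, 33.6% of all genes rose and 34.6% fell. Among 8 adipocyte markers, 7 (Adipoq, Plin1, Cidec, Cfd, Retn, Lep and Ucp1) lay under an RPKM of 1 in every sample of both stages, and the eighth, Fabp4, is also an endothelial and PPAR target gene. At E10.5, 3 of 10 cardiomyocyte markers fell (2.56% of all genes) and 1 of 7 endothelial markers rose (2.49%). The sum of 8 erythroid markers spread from 257 to 2199 over the 6 samples of that stage. Fewer cardiomyocytes in a sample and less of an RNA in each cannot be told apart in these bulk measurements, and the part of these markers in the results that follow was not tested.

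In the adult cardiomyocytes 8 of the 10 regulators fell in icKO, 7 of them by more than 1 on the log2 scale, and none rose. Among all 9517 genes tested, 34.6% fell and 15.9% fell by more than 1, while 33.6% rose. With the RPKM as deposited, 7 regulators were lower (18.1% of all genes) and 2, Ppard and Pparg, were higher (60.6% of all genes). Of the 10, 9 had every icKO sample below every Ctrl sample after scaling, against 36.9% of all genes, and none had every icKO sample above, against 36.4%. No regulator was higher at an unadjusted p under 0.05 in the scaled values. The median log2 fold change of the 10 was −1.28 after scaling and −0.72 as deposited, where 4 (Ppara, Rxrg, Ppargc1a and Ppargc1b) were lower by more than 1, against 8.45% of all genes.

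Ppargc1b fell furthest of the 10, and both PGC-1 coactivators fell. Ppargc1b, which encodes PGC-1β, had an RPKM of 9.37, 15.9 and 11.8 in the Ctrl samples and of 0.808, 1.44 and 1.05 in the icKO samples. Every icKO sample thus lay far under the lowest Ctrl sample, and the group mean, after scaling, was 6.01% of Ctrl (log2 fold change −3.91, SE 0.23, adjusted p = 2.28e-06). Only 65 of the 9517 genes tested, 0.683%, had a lower log2 fold change. Ppargc1a, on chromosome 5 at chr5:51454250-51567726 (GRCm38, minus strand), encodes PGC-1α, the coactivator that cold, fasting and exercise induce. Its RPKM was 21.2, 22.7 and 27.4 in Ctrl and 6.26, 5.96 and 6.53 in icKO. The icKO samples were close to each other and all lower than Ctrl, at 17.8% of the Ctrl mean after scaling (log2 fold change −2.46, SE 0.11, adjusted p = 9.13e-07). The summed RPKM of both genes was 36.1 ± 4.83 in Ctrl and 7.35 ± 0.259 in icKO (SD, n = 3 each), the lowest remainder of the 4 families (13.8% of Ctrl after scaling).

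The genes whose profile over the 6 samples lay nearest to that of Ppargc1b were Phkg1, a catalytic subunit of phosphorylase kinase, Ogdhl, an oxoglutarate dehydrogenase-like gene, and Asb14, an ankyrin repeat and SOCS box gene. Likeness was measured as the root mean square difference of the log2 values relative to the Ctrl mean, which was 0.20, 0.22 and 0.25. Their log2 fold changes were −3.93, −3.95 and −4.18.

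Of the PPAR receptors, only Ppara fell. Ppara (chr15:85734983-85802819, plus strand), which encodes PPARα, the main fatty acid sensing receptor of the adult heart, had an RPKM of 16.5, 15.2 and 17.2 in Ctrl and of 2.59, 3.92 and 3.45 in icKO. The groups were far apart, with the icKO mean at 13.8% of Ctrl after scaling (log2 fold change −2.83, SE 0.15, adjusted p = 1.45e-06), and 2.18% of all genes had a lower log2 fold change.

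Ppard (chr17:28232700-28301474, plus strand) encodes the widely expressed PPARδ, and its direction depended on the scaling. The RPKM was 6.08, 5.98 and 5.72 in Ctrl and 8.54, 7.43 and 8.16 in icKO, so that as deposited every icKO sample was higher (log2 fold change 0.43, adjusted p = 0.00276). Relative to the typical gene the log2 fold change was −0.13 (95% interval −0.34 to 0.09, adjusted p = 0.265), and every icKO sample was lower. Over all alternatives the adjusted p of Ppard ran from 0.00276 to 0.684.

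Pparg (chr6:115360951-115490399, plus strand), whose product PPARγ is best known from adipocytes, was the lowest member in Ctrl. Its RPKM was 0.469, 0.993 and 0.896 in Ctrl and 2.23, 1.18 and 2.35 in icKO, from about 13 to 80 reads per sample. As deposited the groups did not overlap and the log2 fold change was 1.19 (adjusted p = 0.00923). After scaling the groups overlapped and the log2 fold change was 0.67 (95% interval −0.11 to 1.45, adjusted p = 0.113). The call also passed with quantile normalization, with the scaling without the 20 most abundant genes, and without icKO replicate 2 (log2 fold change 0.99, adjusted p = 0.0295). Over all alternatives the adjusted p ran from 0.00923 to 0.331.

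**Figure D1:**
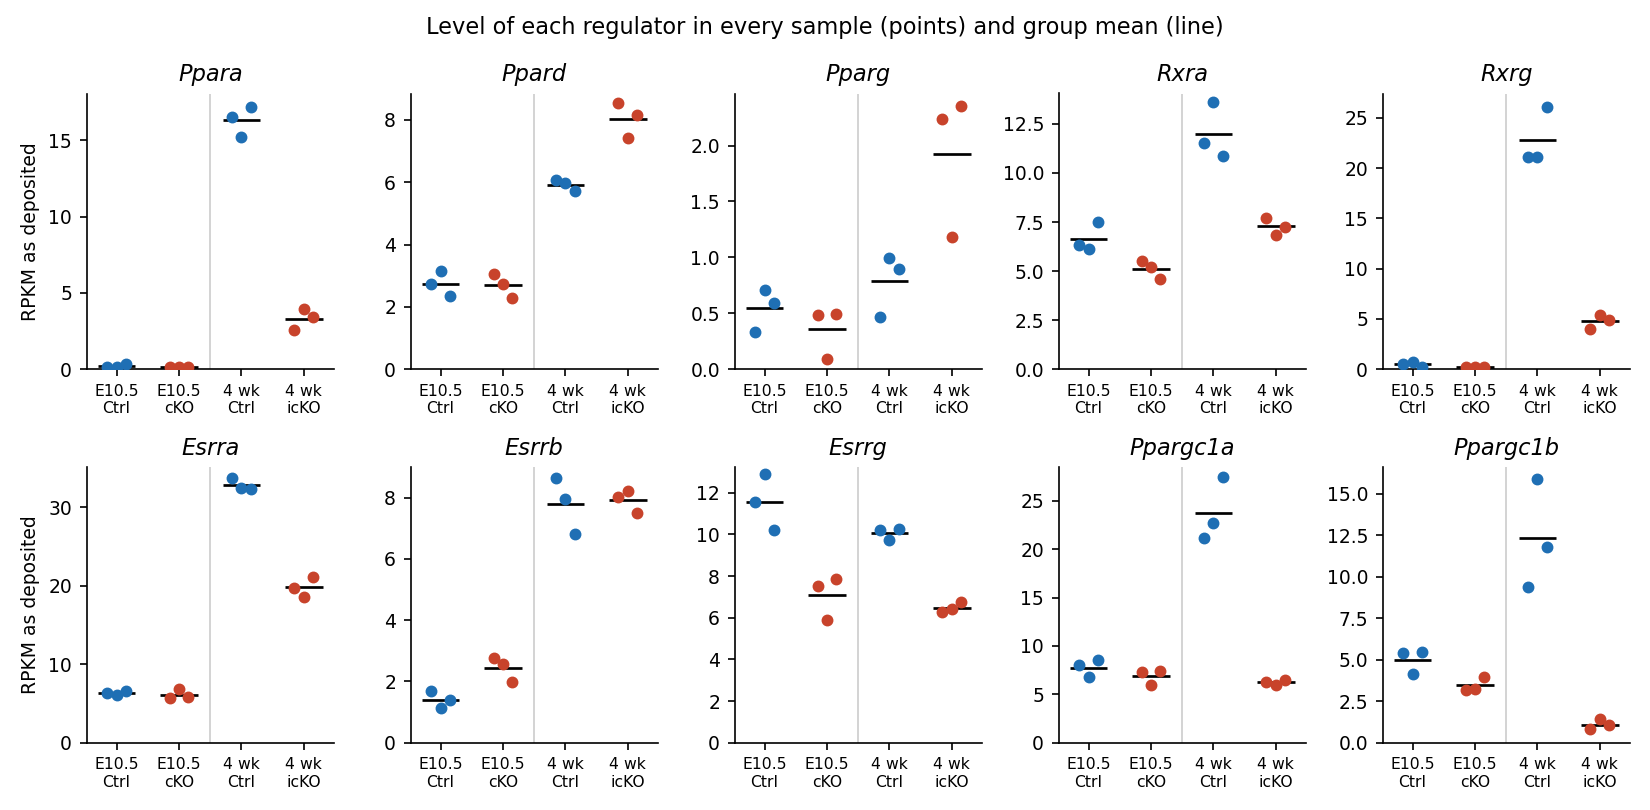
RPKM as deposited (vertical axis, from 0, a scale of its own in each panel) of the 10 regulators in every sample. Points are samples, 3 per group, in blue for Ctrl and red for cKO or icKO, and black lines are group means. At 4 weeks the icKO points of Ppara, Rxra, Rxrg, Esrra, Esrrg, Ppargc1a and Ppargc1b lie under all Ctrl points, those of Ppard and Pparg over them, and those of Esrrb among them.

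Both RXR members fell. Rxrg (chr1:167598384-167639623, plus strand) encodes RXRγ, the RXR that is most restricted to muscle and brain. Its RPKM was 21.1, 21.1 and 26.1 in Ctrl and 4.03, 5.43 and 4.89 in icKO. No icKO sample came near the Ctrl range, and the mean was 14.2% of Ctrl after scaling (log2 fold change −2.79, SE 0.14, adjusted p = 1.13e-06). Rxra (chr2:27676440-27762957, plus strand) encodes RXRα, the widely expressed partner. Its RPKM was 11.5, 13.6 and 10.9 in Ctrl and 7.70, 6.85 and 7.27 in icKO. The groups did not overlap, and the mean was 41.0% of Ctrl after scaling and 60.6% as deposited (log2 fold change −1.27, SE 0.11, adjusted p = 1.20e-05). Rxrb, the RXR gene outside the 10, had a log2 fold change of −0.71 (adjusted p = 0.000805), and of −0.15 (adjusted p = 0.241) as deposited.

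The promoters of the regulators were searched for the DNA elements of their own families and of CREB and MEF2 factors. RefSeq windows of 250 bases before to 50 bases after a start site (GRCm38.p6) were searched on both strands for AGGTCA, the core that nuclear receptors recognise, for AAGGTCA, the extended core that ERRs prefer, which contains it, for the direct repeat of AGGTCA with 1 base of any kind between both copies, which PPAR and RXR bind together, for TGACG and TGACGTCA, the short and full cyclic AMP response elements, and for the MEF2 core, CTA and TAG with 4 bases of any kind between them. The search covered 17 windows of 9 of the regulators. All 3 of the sequences printed come from genes that fell by more than 1 on the log2 scale, and each runs over the 150 bases before a start site, 5′ to 3′ on the strand of the gene, with motif matches in capitals. The Rxrg and Rxra windows are those of the second start site of each gene. The windows of their first start sites held no match, nor did the only window of Esrra, which also fell.
Ppargc1a, chr5:51567726-51567875, minus strand: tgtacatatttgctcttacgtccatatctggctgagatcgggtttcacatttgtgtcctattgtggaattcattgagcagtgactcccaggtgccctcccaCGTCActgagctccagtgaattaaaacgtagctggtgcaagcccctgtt
Rxrg, chr1:167618115-167618264, plus strand: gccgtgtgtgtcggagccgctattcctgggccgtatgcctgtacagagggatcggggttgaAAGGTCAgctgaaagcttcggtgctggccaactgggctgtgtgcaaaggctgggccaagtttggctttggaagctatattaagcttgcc
Rxra, chr2:27709142-27709291, plus strand: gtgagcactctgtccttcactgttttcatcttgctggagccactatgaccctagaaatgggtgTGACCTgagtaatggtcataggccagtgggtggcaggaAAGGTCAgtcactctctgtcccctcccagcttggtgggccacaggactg

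In Rxrg the capitals mark AAGGTCA, which began 89 bases before the start, and in Rxra AAGGTCA at 49 bases before it and TGACCT, the reverse complement of the core, at 87 bases before it. In Ppargc1a they mark CGTCA, the reverse complement of TGACG, at 49 bases before the start. AAGGTCA was found in 4.72% and AGGTCA in 16.3% of the 32851 windows of all genes, and TGACG in 20.8%. The direct repeat, found in 0.0396% of all windows, and the full cyclic AMP element, found in 1.79%, were in none of the 17 windows. AGGTCA was also found in windows of Pparg, TGACG in windows of Ppara, Ppard and Esrrb, and the MEF2 core (3.69% of all windows) in a window of Esrrg. A match describes the letters of the window and not the binding of a factor.

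All ERR genes fell after scaling, Esrrb only then. Esrra (chr19:6910977-6921813, minus strand) encodes ERRα, the most abundant of the 10 in adult Ctrl cardiomyocytes. Its RPKM was 33.7, 32.5 and 32.2 in Ctrl and 19.7, 18.6 and 21.1 in icKO. The groups were well apart, with the icKO mean at 40.8% of Ctrl after scaling and 60.3% as deposited (log2 fold change −1.29, SE 0.09, adjusted p = 3.66e-06). Exons of Esrra overlap those of Trmt112 on the other strand and of Mir6990 on the same strand, and whether the counting used strand is not given in the sources used here, so its level may hold reads of these genes. Esrrg (chr1:187608791-188214885, plus strand) encodes ERRγ, which is enriched in oxidative muscle and heart. Its RPKM was 10.2, 9.74 and 10.3 in Ctrl and 6.29, 6.42 and 6.76 in icKO, again without overlap (log2 fold change −1.18, SE 0.09, adjusted p = 7.43e-06). Esrrb (chr12:86361117-86521628, plus strand) encodes ERRβ, known from stem cells and placenta. Its RPKM was 8.63, 7.96 and 6.83 in Ctrl and 8.01, 8.23 and 7.52 in icKO. As deposited these values overlapped and the log2 fold change was 0.03 (adjusted p = 0.839), while relative to the typical gene Esrrb fell (log2 fold change −0.53, SE 0.10, adjusted p = 0.00173). The scaling without the 20 most abundant genes also ended the call (adjusted p = 0.0873), and over all alternatives the adjusted p ran from 0.000816 to 0.839.

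**Figure D2:**
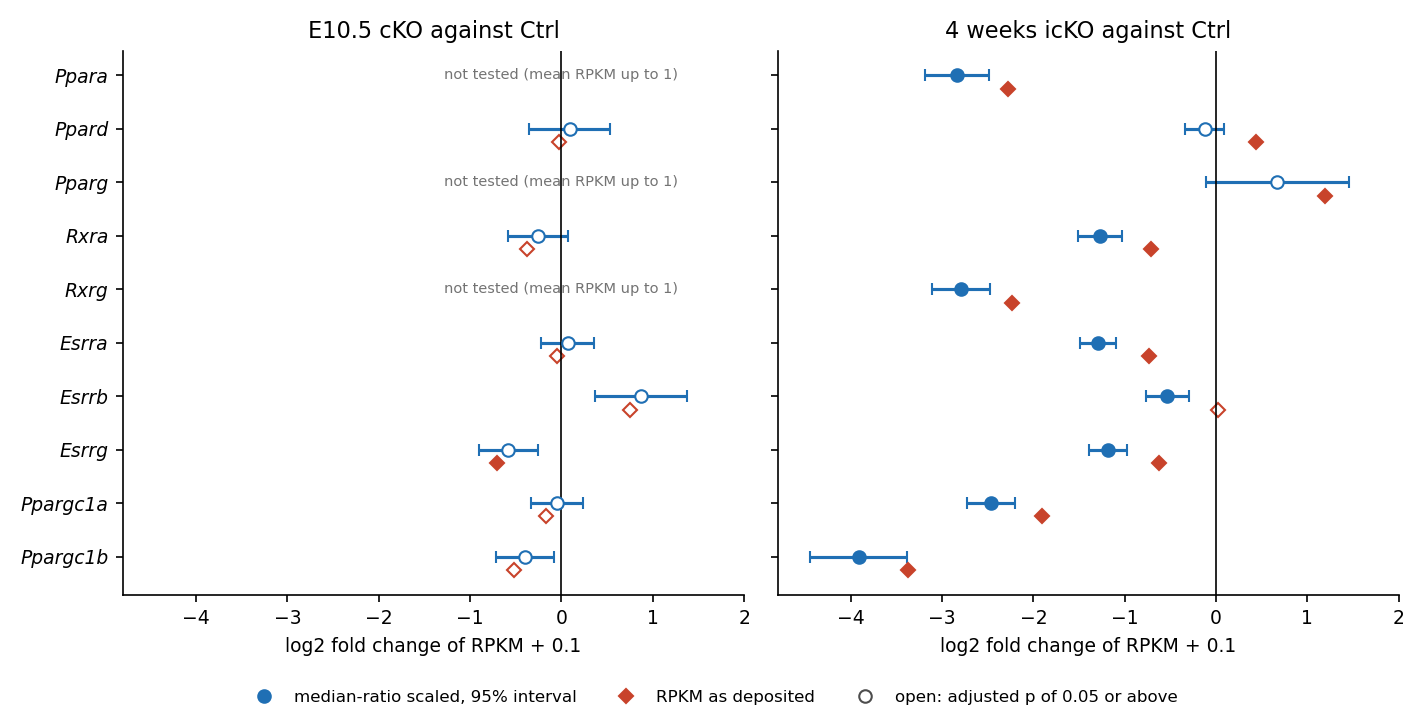
Log2 fold change of RPKM + 0.1 (horizontal axis) of the 10 regulators (vertical axis), at E10.5 on the left and at 4 weeks on the right. Blue circles are values after median-ratio scaling with 95% intervals, red diamonds are values from the RPKM as deposited, and open symbols did not pass an adjusted p of 0.05. At 4 weeks the diamonds lie to the right of the circles for every gene and cross 0 for Ppard and Esrrb, whereas Ppargc1b, Ppara, Rxrg and Ppargc1a stay below −1.9 on both scales.

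The order of levels changed with the knockout in adult cardiomyocytes. In Ctrl it ran from Esrra (mean RPKM 32.8 ± 0.777, SD, n = 3) through Ppargc1a (23.8 ± 3.24), Rxrg (22.8 ± 2.91), Ppara (16.3 ± 1.02), Ppargc1b (12.3 ± 3.29), Rxra (12 ± 1.42), Esrrg (10.1 ± 0.291), Esrrb (7.81 ± 0.909) and Ppard (5.93 ± 0.185) to Pparg (0.786 ± 0.279). The ranges of Ppargc1a and Rxrg overlapped, as did those of Ppara and Ppargc1b and of Ppargc1b and Rxra. In icKO, Esrra was still highest (19.8 ± 1.27) and was followed by Ppard (8.04 ± 0.561), Esrrb (7.92 ± 0.366) and Rxra (7.27 ± 0.426), with overlapping neighbours. Next came Esrrg (6.49 ± 0.241) and Ppargc1a (6.25 ± 0.282), which also overlapped, then Rxrg (4.78 ± 0.704), Ppara (3.32 ± 0.674) and finally Pparg (1.92 ± 0.646) and Ppargc1b (1.10 ± 0.317), whose ranges overlapped. Ppara thus went from above 80.1% to above 25% of the genes tested, and Ppargc1b from above 74.5% to above 3.79%.

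Shares within a family do not depend on the scaling between samples. They were computed as the percentage that a gene made up of the summed RPKM of its family in 1 sample, and tested with an exact two-sided permutation test, in which 3 samples against 3 cannot give a p under 0.1. Ppara made up 71.6%, 68.5% and 72.2% of the PPAR sum in adult Ctrl and 19.4%, 31.3% and 24.7% in icKO (exact p = 0.1). Ppard went the other way, from 25.8% ± 1.56 to 60.5% ± 2.92 (SD, n = 3 each), and Pparg from 3.43% ± 1.26 to 14.3% ± 4.26. The most abundant PPAR transcript was therefore Ppara in every adult Ctrl sample and Ppard in every icKO sample. The shares of a family add up to the whole, so a fall of Ppara raises those of the others. After median-ratio scaling neither Ppard nor Pparg itself passed as risen.

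In the RXR family, counted with Rxrb, Rxrg made up 53.0% ± 4.48 in adult Ctrl and 24.6% ± 2.58 in icKO, Rxra 28.1% ± 3.82 and 37.7% ± 4.38, and Rxrb 19% ± 0.896 and 37.7% ± 2.65. Ppargc1a made up 66.1% ± 6.21 of the PGC-1 pair in Ctrl and 85.1% ± 4.09 in icKO. In the ERR family Esrra stayed first, at 64.7% ± 0.595 and 57.8% ± 1.88, while Esrrb and Esrrg changed places, with Esrrb at 15.4% ± 1.36 and 23.2% ± 1.80 and Esrrg at 19.9% ± 0.812 and 19% ± 0.421. Each of these adult shares differed without overlap of the groups, at the smallest p the exact test allows (0.1).

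**Figure D3:**
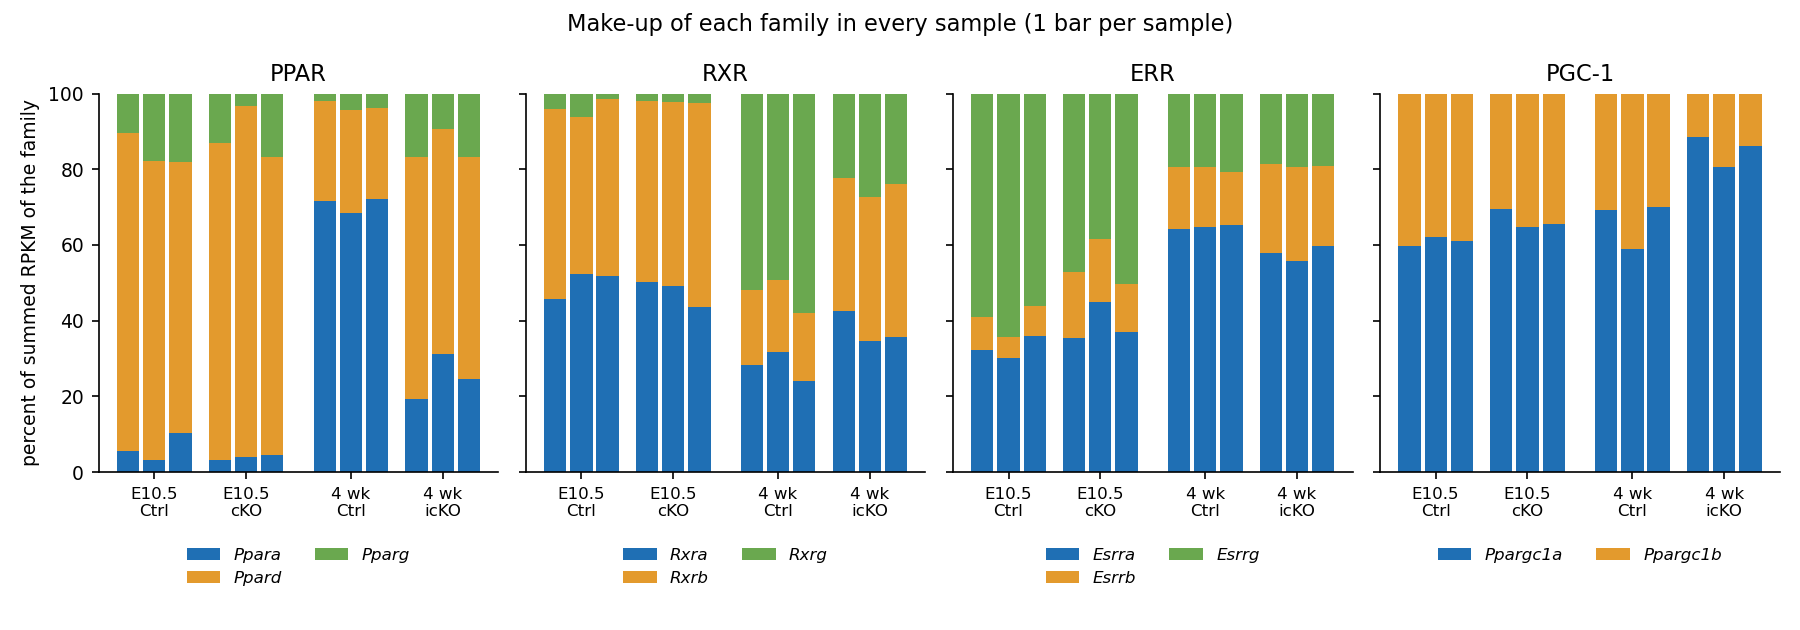
Share of each gene in the summed RPKM of its family (vertical axis, percent, from 0 to the whole), with 1 stacked bar per sample and 3 samples per group at each stage. In the PPAR panel the share of Ppara (blue) stands at 68.5% to 72.2% in the adult Ctrl bars and at 19.4% to 31.3% in the icKO bars, and is small in all E10.5 bars.

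In the embryonic hearts 3 of the regulators were too low to be tested, and none of the others passed. Esrrg and Ppargc1a lay above 69.4% and 54.8% of the genes tested in Ctrl. Ppara, Rxrg and Pparg were below the RPKM limit for testing. Ppara was measured at 0.179, 0.130 and 0.343 in Ctrl and at 0.118, 0.118 and 0.131 in cKO, from about 6 to 19 reads. Rxrg was at 0.566, 0.714 and 0.222 in Ctrl and at 0.204, 0.237 and 0.261 in cKO, and Pparg at 0.337, 0.709 and 0.594 in Ctrl and at 0.482, 0.0960 and 0.492 in cKO. In all 3 genes the groups overlapped in RPKM as deposited. After scaling those of Ppara lay just apart, at 0.130 in the highest cKO sample and 0.132 in the lowest Ctrl sample. With 4 to 24 reads per sample, these values cannot tell whether the 3 genes differed.

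Of the 7 regulators tested at E10.5, none passed in either direction with limma, where 2.56% of 10885 genes fell and 2.49% rose. At an unadjusted p under 0.05 there were 3, Esrrb, Esrrg and Ppargc1b, against 23.3% of all genes. Esrrg, the most abundant member at this stage, had an RPKM of 11.6, 12.9 and 10.2 in Ctrl and of 7.52, 5.89 and 7.87 in cKO. The groups did not overlap, and the log2 fold change was −0.58 (95% interval −0.90 to −0.26, adjusted p = 0.0513), and 3.57% of the genes tested had a lower one. With the RPKM as deposited Esrrg alone was lower (3.45% of all genes) and no regulator higher (0.864%). Its adjusted p was then 0.0328, between 0.0328 and 0.144 over all alternatives, and without cKO replicate 3 it was 0.0489. Esrrb was the regulator with the largest difference upward, with an RPKM of 1.68, 1.14 and 1.41 in Ctrl and of 2.76, 2.58 and 1.97 in cKO. Again no samples overlapped (log2 fold change 0.87, 95% interval 0.36 to 1.37, adjusted p = 0.0584). Its fold change was above that of 98.8% of all genes, and the adjusted p was between 0.0283, without cKO replicate 3, and 0.168.

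Ppargc1b was at 5.41, 4.14 and 5.49 in E10.5 Ctrl and at 3.21, 3.24 and 3.94 in cKO. The groups did not overlap and the log2 fold change was −0.40 (95% interval −0.71 to −0.08, adjusted p = 0.132). Of the genes tested, 14.2% had every cKO sample below every Ctrl sample and 15.2% had every cKO sample above, as Esrrg and Ppargc1b, and Esrrb, did. Rxra, at 6.32, 6.13 and 7.49 in Ctrl and 5.50, 5.19 and 4.58 in cKO, had a log2 fold change of −0.26 (95% interval −0.58 to 0.07). For Ppargc1a, at 8.0, 6.75 and 8.57 in Ctrl and 7.32, 5.96 and 7.44 in cKO, it was −0.05 (−0.33 to 0.23). Esrra had values of 6.33, 6.06 and 6.55 in Ctrl and 5.64, 6.90 and 5.80 in cKO and a log2 fold change of 0.07 (−0.22 to 0.36). Ppard had values of 2.74, 3.14 and 2.37 in Ctrl and 3.06, 2.73 and 2.30 in cKO and a log2 fold change of 0.09 (−0.36 to 0.54). The samples of Ppargc1a, Esrra and Ppard overlapped, and those of Rxra overlapped only after scaling.

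Within the embryonic ERR family, Esrrg made up 59.8% ± 4.04 in Ctrl and 45.3% ± 6.23 in cKO, and Esrrb 7.33% ± 1.5 and 15.6% ± 2.58, without overlap (exact p = 0.1 for each, the smallest possible). Esrra made up 32.8% ± 2.97 and 39.1% ± 5.07, with overlap (exact p = 0.2). Ppargc1a made up 60.9% ± 1.15 of the PGC-1 pair in Ctrl and 66.6% ± 2.58 in cKO (exact p = 0.1). Ppard was the leading PPAR transcript in all 6 embryonic samples, at 78.2% ± 6.29 and 85% ± 7.12 (exact p = 0.5).

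The effect of the knockout was compared between stages by a limma contrast over all 12 samples, with each stage scaled on its own. This contrast also holds the difference between whole embryonic hearts and isolated adult cardiomyocytes and between both Cre lines, which cannot be told apart from age. Of the 7 regulators with a mean RPKM above 1 at both stages, the effect on 6 was lower at 4 weeks than at E10.5, against 25.7% of 8909 genes. The largest differences were those of Ppargc1b (−3.52, SE 0.29, adjusted p = 1.11e-06) and Ppargc1a (−2.42, SE 0.17, adjusted p = 3.72e-07), each on the log2 scale. Ppard did not pass (−0.22, SE 0.21, adjusted p = 0.414). With the RPKM as deposited, Esrrg (0.07, adjusted p = 0.713) and Rxra (−0.33, adjusted p = 0.0982) no longer passed. The effect on Ppard was then higher at 4 weeks (0.46, adjusted p = 0.0464). The median difference over all 8909 genes was 0.69 in those values and 0.02 after scaling, so Ppard lay below the typical gene on both scales. Over all alternatives the adjusted p of these ran from 0.00263 to 0.713 for Esrrg, from 0.000203 to 0.0982 for Rxra and from 0.0464 to 0.862 for Ppard.

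Known target genes of the receptors were lower in adult icKO cardiomyocytes almost throughout. Of 31 PPAR target genes tested, 27 fell, 26 of them by more than 1 on the log2 scale, 1 rose and 3 did not pass, with a median log2 fold change of −1.88. Among the largest falls were those of Ucp3, a mitochondrial uncoupling protein (log2 fold change −4.48, SE 0.42), Plin5, a lipid droplet protein (−3.62, SE 0.24), and Acaa2, the thiolase that ends a round of mitochondrial β-oxidation (−3.33, SE 0.13). Ucp3 was at a mean RPKM of 33.0 ± 7.95 in Ctrl and 2.42 ± 1.83 in icKO, and Acaa2 at 376 ± 23.8 and 55.7 ± 9.98 (SD, n = 3 each). The gene that rose was Ucp2, another uncoupling protein (1.55, SE 0.21). As deposited, the RPKM gave 26 lower and 3 higher.

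All 30 ERR and PGC-1 target genes fell after median-ratio scaling, 21 by more than 1, with a median log2 fold change of −1.27. With the RPKM as deposited 26 were lower and none higher, with a median of −0.71. With quantile normalization 20 were lower and 4 higher. This list contains Esrra itself. The largest falls were those of Atp2a2, the calcium pump SERCA2 of the sarcoplasmic reticulum (−3.55, SE 0.07), Perm1, a muscle regulator induced by PGC-1 and ERR (−2.66, SE 0.15), Cs, citrate synthase (−2.03, SE 0.10), and Idh3b, a subunit of isocitrate dehydrogenase (−1.83, SE 0.11). Atp2a2 is also a gene of the contractile cardiomyocyte, whose markers fell too. After median-ratio scaling, no higher genes were found in this list at an unadjusted p under 0.05. The share of all genes that fell at 4 weeks, 34.6% (18.1% with the RPKM as deposited), is the background for both target lists. Their genes were listed with earlier results of these data known.

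Among all genes tested at E10.5, 2.56% fell, 2.49% rose and 23.3% had an unadjusted p under 0.05 with limma. None of 25 PPAR target genes tested at E10.5 passed (3 at an unadjusted p under 0.05), with a median log2 fold change of −0.04. Of 29 ERR and PGC-1 target genes, 4 fell and none rose, and 13 had an unadjusted p under 0.05, with a median of −0.21. The 4 were Sdhb, a subunit of respiratory complex II (−0.50, SE 0.12, adjusted p = 0.0461), Uqcrc2 of complex III (−0.45, SE 0.10, adjusted p = 0.0380), Atp5g3, a subunit of ATP synthase (−0.44, SE 0.10, adjusted p = 0.0440), and Atp2a2 (−0.43, SE 0.09, adjusted p = 0.0295). None of the 29 passed with the RPKM as deposited, without a trend, without the filter, or without Ctrl replicate 1, 2 or 3 or cKO replicate 1 or 2, while 1 fell without cKO replicate 3, 1 with quantile normalization and 2 with the replicate block.

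Coregulators and partners were divided. Of 21 tested at 4 weeks, 9 fell, 4 rose and 8 did not pass, with a median log2 fold change of −0.22. Among all genes tested, 34.6% fell and 33.6% rose. In the RPKM as deposited, 4 were lower (18.1% of all genes) and 14 higher (60.6%), and the median was 0.34. Those that fell most were Lpin1, a phosphatidate phosphatase that also coactivates with PGC-1α (−2.70, SE 0.16), Perm1, Kat2a, the acetyltransferase GCN5 that acts on PGC-1α (−1.30, SE 0.16), and Prkaa2, a catalytic subunit of AMP-activated kinase (−1.0, SE 0.07). Lpin1 was at a mean RPKM of 46.7 ± 5.73 in Ctrl and 10.6 ± 2.02 in icKO. Those that rose were Pprc1, the third PGC-1 family member (1.07, SE 0.10), the deacetylase Sirt1 (0.66, SE 0.12), the acetyltransferase Kat2b (0.37, SE 0.08) and the acetyltransferase Crebbp (0.25, SE 0.09). Pprc1 was at a mean RPKM of 2.21 ± 0.135 in Ctrl and 7.0 ± 0.535 in icKO, opposite in direction to Ppargc1a and Ppargc1b. At E10.5 none of 20 passed with limma, and 4 had an unadjusted p under 0.05 (23.3% of all genes).

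Among the mitochondrial biogenesis factors, which copy and transcribe mitochondrial DNA or regulate nuclear genes of the respiratory chain, 8 of 16 tested fell at 4 weeks, 1 rose and 7 did not pass. Among all genes tested, 34.6% fell and 33.6% rose. The median log2 fold change of the list was −0.36 after scaling and 0.20 with the RPKM as deposited. In the latter 5 were lower (18.1% of all genes) and 6 higher (60.6%). The largest falls were those of Mterf2, a mitochondrial transcription termination factor family member (−4.03, SE 0.23), Tfb1m, which methylates mitochondrial ribosomal RNA (−1.5, SE 0.18), Tefm, the mitochondrial elongation factor (−1.14, SE 0.16), and Polrmt, the mitochondrial RNA polymerase (−0.98, SE 0.11). Gabpb1, a subunit of nuclear respiratory factor 2, rose (0.55, SE 0.15). At E10.5, 1 of 16 fell, against 2.56% of all genes. It was Ssbp1, the mitochondrial single-stranded DNA binding protein (−0.51, SE 0.10, adjusted p = 0.0249). The count was 0 with the replicate block, without a trend, and without Ctrl replicate 1, 2 or 3 or cKO replicate 2, and 2 with the RPKM as deposited, with a mean RPKM above 5 and without cKO replicate 3.

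**Figure D4:**
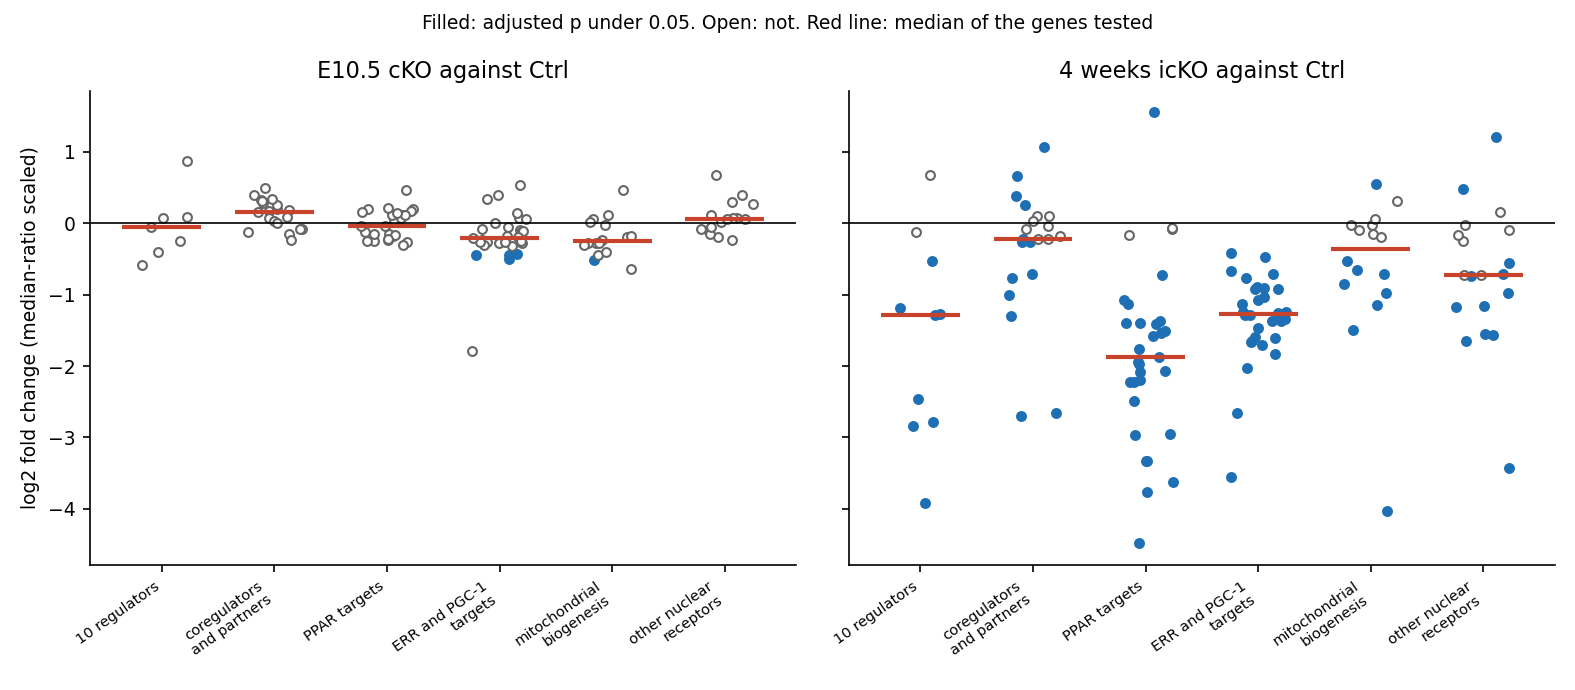
Log2 fold change after median-ratio scaling (vertical axis) of the genes tested in the 10 regulators and in 5 lists of related genes, at E10.5 on the left and at 4 weeks on the right. Points are genes, filled where the adjusted p was under 0.05, and red lines are medians. At 4 weeks the medians are −1.28 for the regulators, −1.88 for PPAR targets and −1.27 for ERR and PGC-1 targets, and −0.22 for the coregulators.

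Other nuclear receptors give the setting for the 8 receptors among the regulators. Of 49 genes of the superfamily, 27 were tested at 4 weeks, of which 16 fell and 2 rose. Without the regulators, 10 of 19 fell and 2 rose (34.6% and 33.6% of all genes), with a median log2 fold change of −0.73. Of these 19, 7 were lower in the RPKM as deposited (18.1% of all genes) and 6 higher (60.6%), with a median of −0.17. Below the regulators Ppara and Rxrg, only Nr0b2, the small heterodimer partner that lacks a DNA-binding domain, went further down in the superfamily (−3.42, SE 0.26). It was at a mean RPKM of 5.21 ± 0.847 in Ctrl and 0.628 ± 0.255 in icKO. Nr3c2, the mineralocorticoid receptor (−1.65, SE 0.14), and Nr4a1 (−1.55, SE 0.26) were among those that followed. The genes that rose were those of both liver X receptors, Nr1h3 (1.20, SE 0.15) and Nr1h2 (0.47, SE 0.08), which like the PPARs pair with an RXR. At E10.5 none of the 16 other receptors tested passed with limma, and 1 had an unadjusted p under 0.05 (23.3% of all genes).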

How the data were processed

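RNA of 12 samples had been sequenced after ribosomal RNA depletion (KAPA RNA Hyper with RiboErase). Per the labels, the authors used cutadapt 2.6, STAR 2.5.3a, HOMER 4.11.1, DESeq2 1.12.4 and the build GRCm38 (mm10). The authors deposited RPKM per gene for each sample, in 1 table per stage, with 20775 genes by symbol, together with a mean RPKM, a log2 fold change and a false discovery rate of their own, none of which were used. The counting strand and annotation are not given in the sources used here. The tables were normalized separately, so tests were made within a stage, and levels of the stages are only set side by side. Columns in the E10.5 table named icKO were taken as cKO from the titles of the samples.

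RPKM were scaled within each stage by median ratios (factors 0.817 to 1.24), the counterpart of the size factors in the methods of the study. Genes whose RPKM averaged above 1 in the 6 samples of a stage were fitted on log2(RPKM + 0.1) with limma 3.58.1 (lmFit, eBayes with trend; R 4.3.3), with Benjamini-Hochberg adjustment. Count models were not used, since the values are RPKM. Reads per sample were estimated from the spacing of low values, using the longest transcript per gene in GENCODE M21. Between 51.3% and 57.3% of the low values were no more than 0.1 from a whole read, against 20% by chance, so the depth is approximate. Both steps were tested on simulated data, with the transcript lengths known and as many genes raised as lowered. These simulations therefore do not test the lengths used or the choice of scaling at 4 weeks. Promoter windows are those of RefSeq, and chromosome 18, with Ppargc1b, was left out of them. Python 3.11.15, pandas 2.3.3, numpy 2.4.6, scipy 1.17.1 and matplotlib 3.10.9 were used.

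The regulators and the lists of related genes were chosen with earlier results of these data known. Named beside the regulators and Med30 are, per list and stage, up to 4 genes with the largest fold change in each direction among those past an adjusted p of 0.05 whose groups did not overlap, and the 3 genes with the profile nearest to that of the regulator with the largest fall. Some genes that this rule names are not reported here. Nppa, Fabp4 and Rxrb were named after their values were seen. Alternatives were the RPKM as deposited, quantile normalization, factors computed without the 20 most abundant genes, pseudocounts of 1 and 0.01, no filter, a mean RPKM above 5, eBayes without a trend, a block for the replicate number, and leaving out every replicate once.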

Additional observations from a re-analysis of the deposited data

Results flagged for a closer look

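For 6 regulators the effect of the knockout differed between the stages in the limma contrast over all 12 samples. On the log2 scale, the 4 weeks effect less the E10.5 effect was −3.52 for Ppargc1b (adjusted p = 1.11e-06), −2.42 for Ppargc1a (adjusted p = 3.72e-07), −1.40 for Esrrb (adjusted p = 0.000175), −1.36 for Esrra (adjusted p = 9.36e-06), −1.01 for Rxra (adjusted p = 0.00047) and −0.60 for Esrrg (adjusted p = 0.0106). Of these, Esrrb was higher in all 3 E10.5 cKO samples than in any Ctrl sample, and lower in all 3 icKO samples only after scaling. The stages also differ in the Cre line and in the cells taken, which cannot be told apart from age.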

How the results depend on the processing

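The falls of Ppara, Rxra, Rxrg, Esrra, Esrrg, Ppargc1a and Ppargc1b at 4 weeks kept their direction and their call under every alternative run. Values that changed did so mainly with the scaling. With the RPKM as deposited, the log2 fold change of Ppard was −0.027 at E10.5 and 0.43 at 4 weeks, with 0.46 between stages, that of Esrra was −0.050 at E10.5, that of Esrrb was 0.026 at 4 weeks, and that of Esrrg between stages was 0.074. The regulators called were then 1 lower at E10.5, 2 higher at 4 weeks and 1 higher between stages, and all genes called were 376 lower and 94 higher at E10.5 and 1727 lower and 5765 higher at 4 weeks, against 279, 271, 3294 and 3195 in the main comparison. The regulator higher between stages was Ppard, whose 0.46 lay below the median of all genes in that contrast (0.69). With the scaling without the 20 most abundant genes, Ppard was at 0.19 at 4 weeks and 0.052 between stages and Ppargc1a at 0.0043 at E10.5, 1 regulator was higher at E10.5 and 1 at 4 weeks, and 409 genes were higher at E10.5. Quantile normalization left 1 regulator higher at 4 weeks, and a pseudocount of 1 and a mean RPKM above 5 each left 1 lower at E10.5. With a mean RPKM above 5, 2034 genes were lower at 4 weeks, where fewer genes are tested. At E10.5, 47 genes were lower and 77 higher without a trend, and 131 and 172 without the filter. The cause of these changes was not tested.

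Leaving out 1 replicate at a time, all genes called at E10.5 ran from 26 to 384 lower and from 34 to 382 higher, with the fewest without Ctrl replicate 3 and the most without cKO replicate 3. Regulators called at E10.5 ran from 0 to 1 in each direction and those higher at 4 weeks from 0 to 1. The 1 at 4 weeks was found without icKO replicate 2, where 2957 of 9509 genes were higher. Log2 fold changes at E10.5 ran from −0.015 to 0.23 for Ppard, from −0.035 to 0.14 for Esrra and from −0.11 to 0.037 for Ppargc1a. For samples with the same number, the correlations of their deviations were 0.0139, 0.101 and −0.0692 at E10.5 and 0.152, 0.0416 and 0.0452 at 4 weeks. For samples with different numbers they ran from −0.176 to 0.129 at E10.5 and from −0.129 to 0.0814 at 4 weeks. Not every sample correlated best with its own number. With the replicate block, 180 genes were lower and 181 higher at E10.5, and 8 regulators were lower at 4 weeks, 0 were called at E10.5 and 6 were lower between stages, as without it. For single regulators and Med30, 413 values kept direction and call under the alternatives, 17 gained a call, 3 lost it and 13 turned direction. Counts of the related lists were equal or within 1.5 times in 259 cases and moved in 41. The 259 include counts of 0 that stayed at 0, as for the PPAR target genes at E10.5. The share of the most abundant gene of each family kept its direction without each replicate, as a ratio to the next gene and, for RXR at E10.5, without Rxrg. Depth limits Ppara, Pparg and Rxrg at E10.5, and with 3 samples a group no exact test of a share can pass.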
